A study of Sus scrofa with 6 samples.

Results

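The late-numbered miRNAs are the porcine miRNAs whose miRBase number is 4000 or above. They were chosen by name alone, whatever their letter or arm suffix, and made up 123 of the 453 miRNAs in the table. Small-RNA sequencing had been done on small extracellular vesicles (s-EVs) of follicular fluid taken from prepubertal gilts (Landrace × Large White), with 3 libraries per group and 0.5 mL of pooled fluid per replicate. In the high-quality (HQ) group the oocyte of each follicle had not taken up lissamine green B, a vital stain of oocyte quality, and in the low-quality (LQ) group it had. The ovaries were from a slaughterhouse, the follicles looked healthy, and the labels give their size as 2 to 6 mm. The paper's methods give a narrower range of sizes. Each sample was thus a pool of fluid from many follicles, and the stain was read on the oocyte, not on the vesicles. The labels call the 3 samples of a group biological replicates.

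MiRNAs are short RNAs cut from a hairpin precursor. They guide Argonaute proteins to messenger RNAs that match their seed, bases 2 to 8 of the mature sequence. The 2 arms of a hairpin give the 5p and 3p products, and usually 1 arm is kept while the other is degraded. miRBase numbers miRNAs in the order of their submission, so widely conserved and abundant miRNAs such as let-7 and miR-16 have low numbers. High numbers are mostly held by miRNAs found later by deep sequencing, many of them in a single species and many of low abundance. Of the numbers here, those of miR-6516, miR-6529 and miR-6782 were taken as also carried by human miRNAs, and the other numbers were not checked for this. Vesicles carry miRNAs out of the cells that line the follicle and into its fluid, and from the blood that supplies it.

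Values are TMM-adjusted CPM (read counts scaled to library size), normalized by the authors. In each library the values rose in whole steps, each as large as the library's lowest value above 0 (largest deviation 6.66e-05 of a step). With a step taken as 1 read, the libraries held 898530 to 3159116 miRNA reads, fewest in LQ replicate 1. A single read was then worth 1.23 CPM there and 0.341 to 0.571 CPM in the other libraries. Counting error alone lets a value of 0 stand for up to 3 steps, or 1.02 CPM in LQ replicate 3 but 3.68 in LQ replicate 1. Among cell type markers, miR-202-5p, typical of the gonads, ranked 5 among all miRNAs, with mean levels of 71448 CPM in HQ against 70526 in LQ. It was at 39008 CPM in HQ replicate 2 and at 61054 to 88612 CPM in the other libraries. Its partner arm miR-202-3p was higher in HQ, at 906 against 505 CPM (log2 difference 0.83, limma, adjusted p = 0.0287). Summed muscle markers (miR-1, miR-206, miR-133a-3p, miR-133b) stood at 56.5 to 64.3 CPM in HQ and 147 to 230 CPM in LQ. Summed neural markers (miR-9, miR-9-1, miR-124a) stood at 4.22 to 8.90 CPM in HQ and 99.5 to 219 CPM in LQ. Of these, miR-124a was above 0 only in LQ replicate 3, at 1.02 CPM, and was not tested. Summed endothelial markers (miR-126-5p, miR-126-3p) stood at 874 to 1062 CPM in HQ and 1619 to 2149 CPM in LQ, and miR-126-5p passed as higher in LQ. miR-126-3p did not pass, at means of 277 CPM in HQ and 312 CPM in LQ (log2 difference -0.18). Of the 5 leukocyte markers, only miR-142-5p passed, as higher in LQ, and the sums were 193 to 213 CPM in HQ and 217 to 318 CPM in LQ. Log2 differences were 0.52 for miR-155-5p and 0.09 for miR-150, and -0.15 for miR-142-3p and -0.39 for miR-223. Of the 3 erythrocyte markers, miR-486 passed as higher in HQ and miR-451 as higher in LQ, with sums of 99.3 to 152 CPM in HQ and 78.0 to 87.3 CPM in LQ. The 2 liver markers did not pass. The part of these markers in the differences given here was not tested, and fewer vesicles from a cell type cannot be told apart from less of a miRNA per vesicle.

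Most late-numbered miRNAs were not seen in the follicular vesicles. Of the 123, 83 (67.5%) stood at 0 in all 6 libraries, against 25 of the 330 other miRNAs (7.58%). A value above 0 in at least 1 library was held by 40 late-numbered miRNAs, and 24 had one in every library. The block from miR-9784 to miR-9862 held most of the absent ones, with 71 of its 79 miRNAs at 0. Its 8 members above 0 were miR-9843-3p, miR-9851-3p, miR-9841-3p, miR-9820-5p, miR-9860-5p, miR-9810-3p, miR-9788-3p and miR-9858-5p. In contrast, 19 of the 23 miRNAs from miR-7134 to miR-7857 were above 0, as were all 3 from miR-6516 to miR-6782, 5 of 9 from miR-4331 to miR-4339 and 5 of 9 from miR-10382 to miR-10391.

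**Figure D1:**
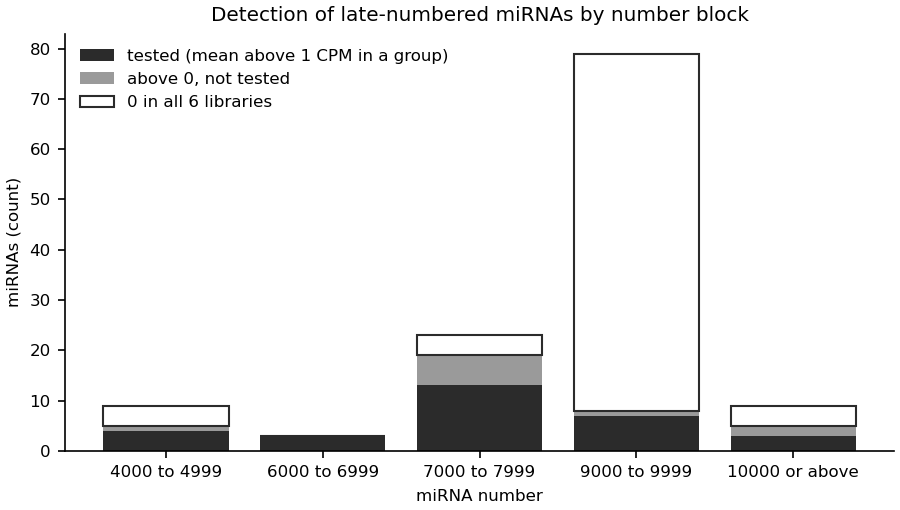
Number of late-numbered miRNAs (vertical axis, count) in each block of miRBase numbers (horizontal axis). Black is the miRNAs with a mean above 1 CPM in a group, grey those above 0 that did not reach it, and white those at 0 in all 6 libraries, which are 71 of 79 in the block of miR-9784 and 4 of 23 in the block of miR-7134.

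A mean above 1 CPM in either group, the level at which the study calls a miRNA expressed, was reached by 30 late-numbered miRNAs (24.4%) and by 279 of the others (84.5%). The other 10 above 0 were miR-7143-5p, miR-10382, miR-10391, miR-9858-5p, miR-7142-5p, miR-7136-5p, miR-4337, miR-7141-5p, miR-7140-3p and miR-7138-3p. The highest value among them was 1.88 CPM, of miR-7143-5p in HQ replicate 1. Highest values of 1.76, 1.33, 1.23 and 1.14 CPM were reached by miR-7138-3p, miR-7136-5p, miR-4337 and miR-7142-5p. miR-10382 and miR-10391 reached 0.890 and 0.571 CPM, in HQ libraries alone. miR-9858-5p (0.571 CPM), miR-7140-3p (0.441 CPM) and miR-7141-5p (0.341 CPM) were each above 0 in a single library, by 1 step. At the edge of the number threshold, the last miRNAs outside it were miR-3613, at a mean of 18.1 CPM in HQ against 18.7 in LQ, and miR-2483, at 589 against 403 CPM. The first miRNAs inside it were miR-4331-5p, at 303 against 283 CPM, and miR-4331-3p, at 48.8 against 41.9 CPM.

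The Sscrofa11.1 RefSeq annotation gave a mature sequence for 96 of the 123 late-numbered miRNAs and for 23 of the 30 with a mean above 1 CPM. The sequences below are those of the 3 miRNAs with a sequence that differed between the groups, of miR-9843-3p, the most abundant one with a sequence, and of miR-4331-3p and miR-4334-3p, the most abundant ones with several exact copies in the genome. They run 5′ to 3′, with the seed in capitals.
miR-7134-3p: aUGCGGAAccugcggauacgg
miR-7142-3p: uUUGUUGGcuccucugaaguga
miR-7135-3p: aUCUGUCUgugucucugagcag
miR-9843-3p: uCUGUGAAcuagaaaccucugg
miR-4331-3p: uGUGGCUGugguguaggccagc
miR-4334-3p: uCCCUGUCcuccaggagcuc
miR-339: uCCCUGUCcuccaggagcuca
miR-339-5p: uCCCUGUCcuccaggagcucac

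The first 3 of these, which differed between the groups, have different seeds and none shares its seed with another annotated miRNA of the table. The whole of miR-4334-3p is contained in miR-339, which has 1 base more at its 3′ end, and in miR-339-5p, which has 2 more. Its 20 bases occur 5 times in the genome. One of these places is its own hairpin on chromosome 15 from 121399652 to 121399671, in an intron of DNPEP on the opposite strand. Another 2 lie in the hairpins of miR-339, on chromosome 1 from 164026028 to 164026047 inside MEGF11 and on chromosome 3 from 666968 to 666987 inside C3H7orf50. Reads of miR-4334-3p therefore cannot be told apart from miR-339 reads that end early. The mature sequence of miR-4331-3p, on chromosome 6 from 65468493 to 65468514 between genes, had 28774 exact copies in Sscrofa11.1, and all 80 bases of its hairpin are marked as repeat. Its locus of origin cannot be named. Of the 96 late-numbered sequences, 88 occurred once in the genome. Among the tested ones, miR-9788-3p had 2 exact copies and miR-6782-3p had 4. Bases marked as repeat lay in 5 of the 23 tested sequences. Besides miR-4331-3p these were miR-9820-5p (all 21 bases), miR-7137-5p (20 of 21), miR-7137-3p (21 of 22) and miR-9843-3p (8 of 22). Each of these others occurred once in the genome.

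The place of the hairpin in the genome was described as well. Of 31 with a sequence and a value above 0, 17 (54.8%) lay in an intron of a protein-coding gene on the same strand, against 19 of 65 (29.2%) of those at 0 in every library and 108 of 271 (39.9%) of the other miRNAs. Their median GC content was 59.1%, against 52.2% for those at 0 and 47.6% for the other miRNAs. Annotated clusters were rare among them. A neighbouring miRNA hairpin within 10 kb was annotated for 1 of 96, miR-9828-3p, whose neighbours are its own copies, and for 107 of 271 other miRNAs (39.5%). These counts describe the annotation and carry no test.

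As a class the late-numbered miRNAs held a small part of each library. Summed, they were at 3654, 4093 and 3100 CPM in HQ replicates 1 to 3 and at 2730, 2232 and 2273 CPM in LQ replicates 1 to 3. These sums were 0.385%, 0.447% and 0.330% of the HQ libraries and 0.247%, 0.216% and 0.211% of the LQ libraries, so that each HQ library lay above each LQ library. miR-6529 alone made the larger part of the gap. Without it the sums were 2041, 2160 and 1936 CPM in HQ and 2106, 1615 and 1640 CPM in LQ, and the groups overlapped in CPM. As shares of the libraries, these sums were 0.215%, 0.236% and 0.206% in HQ against 0.191%, 0.156% and 0.152% in LQ, still without overlap. miR-6529 ranked 70 among all 453 miRNAs by mean CPM, miR-9843-3p 82, miR-4331-5p 108, miR-9851-3p 115 and miR-7134-3p 120.

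**Figure D2:**
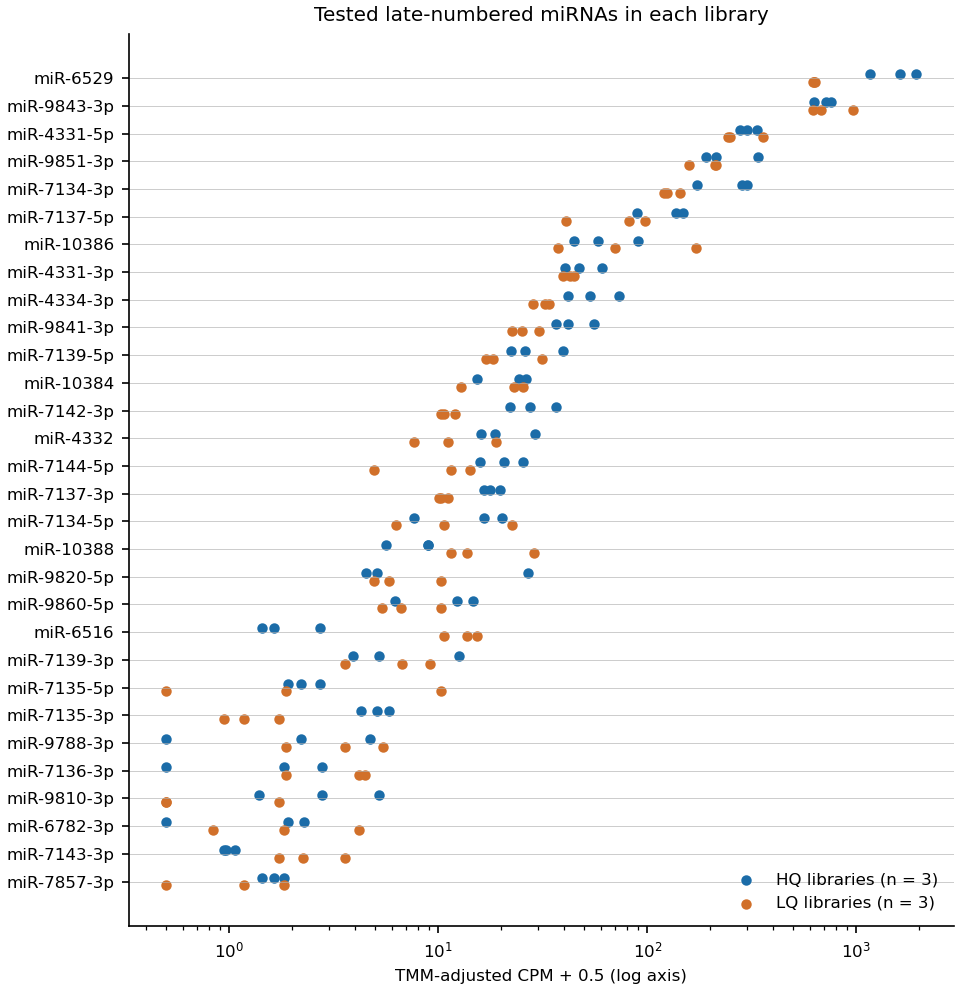
TMM-adjusted CPM plus 0.5 (horizontal log axis) of the 30 late-numbered miRNAs with a mean above 1 CPM, 1 row each, with a point for each of the 3 HQ and 3 LQ libraries. miR-6529 is highest, at 1164 to 1933 CPM in HQ and 617 to 633 CPM in LQ, and miR-7857-3p is lowest by mean, at 1.33 CPM or less in every library.

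Between the groups, 5 of the 30 late-numbered miRNAs differed (16.7%), beside 26.5% of all miRNAs tested. Higher in HQ were miR-6529, miR-7142-3p, miR-7134-3p and miR-7135-3p, and higher in LQ was miR-6516. The test was limma on log2(CPM + 0.5) over all 309 miRNAs that reached a mean of over 1 CPM in a group, with Benjamini-Hochberg adjustment, and it asks whether the vesicle miRNAs differ with the quality of the oocyte. An adjusted p under 0.05 was reached, higher in HQ, by 11.7% of all miRNAs tested and by 4 of the 30 (13.3%). Higher in LQ, it was reached by 14.9% of all and by 1 of the 30 (3.33%). Of the 4 in HQ, miR-7135-3p had a mean over 1 CPM only in HQ, so its entry to the test was tied to its direction. When a fold of 2 and over 5 CPM in the higher group were required as well, miR-6529 and miR-7142-3p remained in HQ, where 5.18% of all miRNAs tested passed, and miR-6516 in LQ, where 7.44% passed. The count of 4 in HQ was 1 without HQ replicate 2 and 8 without LQ replicate 1, and it was 9 once the CPM of each library were scaled to 1 common total.

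**Figure D3:**
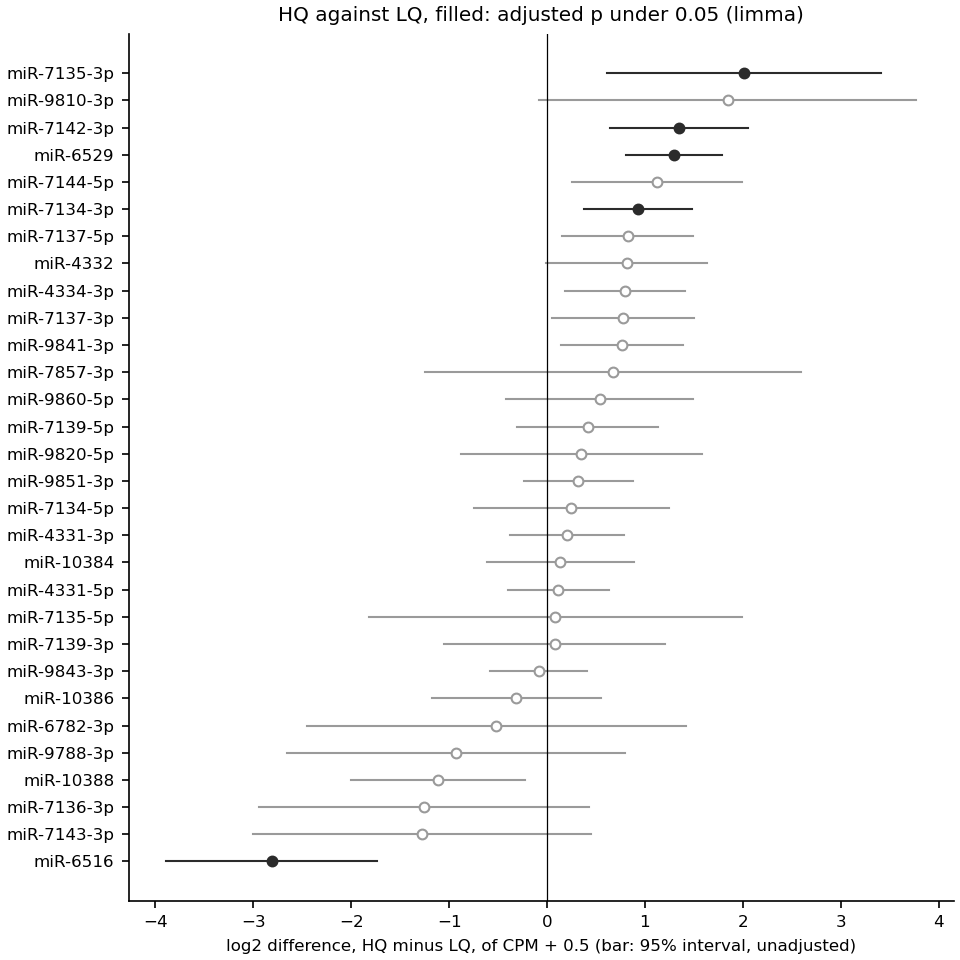
Log2 difference, HQ minus LQ, of CPM plus 0.5 (horizontal axis) for the 30 tested late-numbered miRNAs, with unadjusted 95% intervals from limma. Filled points have an adjusted p under 0.05, and they are miR-7135-3p, miR-7142-3p, miR-6529 and miR-7134-3p on the HQ side and miR-6516, at -2.81, on the LQ side.

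The late-numbered miRNAs leaned to HQ, with 22 of 30 (73.3%) of the log2 differences above 0 and a median of 0.34, beside 166 of 309 (53.7%) and a median of 0.08 over all miRNAs tested. Rescaling to equal sums moved the median of all miRNAs to 0.25 and that of the late-numbered ones to 0.53, and median-of-ratios scaling gave 0.03 and 0.29. Separation without overlap was seen with HQ above in 8 of the 30 (26.7%), against 21% of all miRNAs tested, and with LQ above in 3 (10%), against 22.7% of all. Among these, miR-7135-3p and miR-7143-3p had passed the filter only through their higher group. GC content rose with the log2 difference over all tested miRNAs with a sequence, but little within those of at least 50% GC. Across the 256 tested miRNAs with a sequence, Pearson's r between GC content and the log2 difference was 0.45 (Spearman's rho 0.48), and across the 23 late-numbered ones it was 0.27 (rho 0.24). The points come from the same 6 libraries and are no independent replicates. Among miRNAs of at least 50% GC, 16 of 18 late-numbered ones were above 0 with a median of 0.48, and 77 of 101 others with a median of 0.41. Within that range r was 0.08 (rho 0.12) for the late-numbered ones and 0.12 (rho 0.07) for the others.

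**Figure D4:**
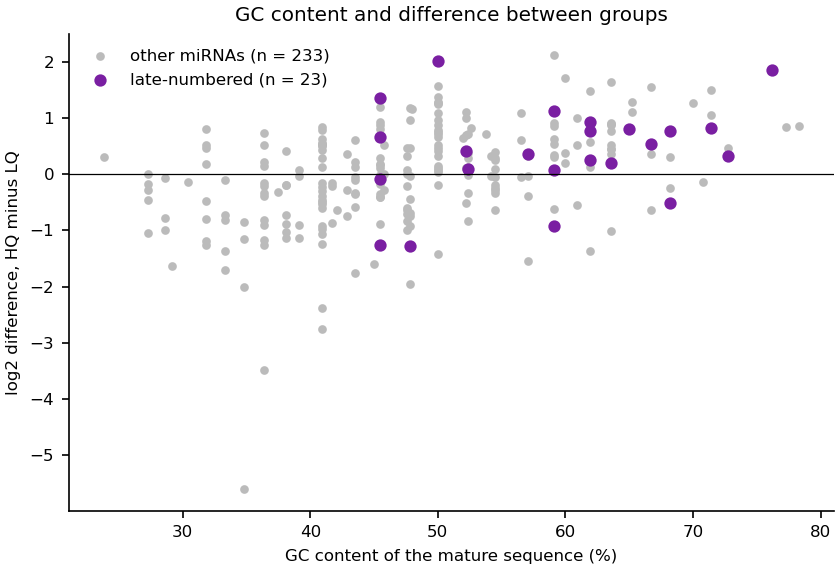
GC content of the mature sequence (horizontal axis, %) against the log2 difference, HQ minus LQ (vertical axis), for tested miRNAs with an annotated sequence. The 23 late-numbered miRNAs (purple) have a median GC content of 59.1% and the 233 others (grey) one of 47.6%.

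miR-6529, the most abundant late-numbered miRNA, was higher in HQ. It stood at 1614, 1933 and 1164 CPM in HQ replicates 1 to 3 and at 624, 617 and 633 CPM in LQ replicates 1 to 3. The LQ libraries were close together, and the HQ libraries were spread more widely and all higher. The means were 1570 ± 386 CPM (SD, n = 3) against 624 ± 8.14 CPM (SD, n = 3), a log2 difference of 1.30 with a standard error of 0.234 (limma, adjusted p = 0.00128). It passed under each of the 16 alternatives that tested it, at 1.13 to 1.499.

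miR-6516, the other changed miRNA with a human namesake, went the opposite way. It was at 0.939, 2.22 and 1.14 CPM in HQ and at 14.7, 10.1 and 13.3 CPM in LQ. With a step taken as 1 read these were 2, 5 and 2 reads in HQ and 12, 23 and 39 in LQ. Every LQ library was thus above every HQ library, from a very low level. The log2 difference was -2.81 (standard error 0.513, adjusted p = 0.00128 from limma), and the ratio of the pooled counts was 8.38 for LQ over HQ, with an exact 95% interval of 4.18 to 19.0 that covers counting error only. Each of its 16 alternatives kept the call, with values of -3.14 to -2.52. miR-6782-3p, the third with such a number, was at 0 in HQ replicate 3 and at most at 3.68 CPM, in LQ replicate 1 (log2 difference -0.52, adjusted p = 0.729 from limma).

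**Figure D5:**
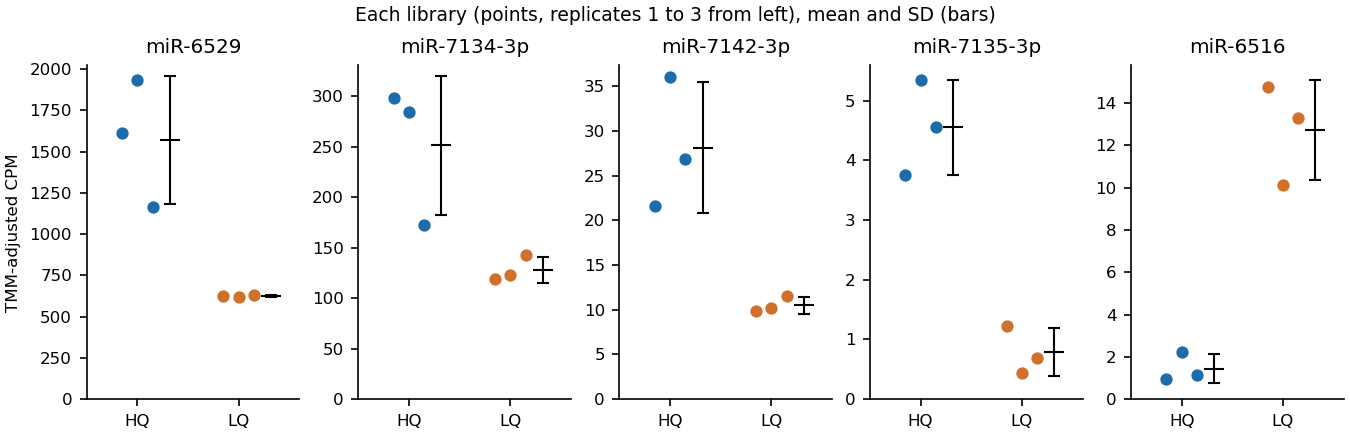
TMM-adjusted CPM (vertical axis, its own scale in each panel) of the 5 late-numbered miRNAs with an adjusted p under 0.05, with a point for each library and the mean ± SD of 3 libraries beside them. The groups do not overlap in any of the panels, and the LQ libraries lie highest only for miR-6516, at 10.1 to 14.7 CPM.

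The hairpin of miR-7134 lies in an intron of TNRC6B on the same strand. TNRC6B encodes a partner of Argonaute in miRNA silencing. The 3p arm, on chromosome 5 from 8161126 to 8161146, was at 298, 285 and 172 CPM in HQ and at 119, 123 and 143 CPM in LQ. HQ replicate 3 was nearest to the LQ libraries, without overlap. The log2 difference was 0.93 (standard error 0.263, adjusted p = 0.0145 from limma), just under the fold of 2. The call was lost without HQ replicate 1 (adjusted p = 0.0748), without HQ replicate 2 (0.0885) and without LQ replicate 2 (0.0593), as well as after GC correction (log2 difference 0.44, adjusted p = 0.204) and without a trend in limma's variance prior (0.0674).
miR-7134-5p, the other arm, was far lower, at 19.7, 7.12 and 15.98 CPM in HQ and 22.1, 10.1 and 5.79 CPM in LQ, and its groups overlapped (log2 difference 0.25, 95% interval -0.75 to 1.24, adjusted p = 0.747). The 3p arm led in all 6 libraries, by 10.8 to 40.0 times in HQ and 5.39 to 24.7 times in LQ.

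miR-7142-3p, in an intron of the kinase gene MARK2 on chromosome 2 from 8204941 to 8204962, was higher in HQ. Its values were 21.6, 36.0 and 26.8 CPM in HQ and 9.83, 10.1 and 11.6 CPM in LQ. The LQ libraries were close together and all below the lowest HQ library. The means were 28.1 ± 7.31 CPM (SD, n = 3) and 10.5 ± 0.935 CPM (SD, n = 3), a log2 difference of 1.35 with a standard error of 0.337 (limma, adjusted p = 0.00681). Without HQ replicate 2 it was 1.16, with an adjusted p of 0.0634. Its 5p arm did not rise above 1.14 CPM in any library.

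miR-7135-3p, in an intron of the efflux transporter gene ABCC1 on chromosome 3 from 28371952 to 28371973, was at 3.75, 5.34 and 4.57 CPM in HQ and at 1.23, 0.441 and 0.681 CPM in LQ. In reads, with a step taken as 1, these were 8, 12 and 8 against 1, 1 and 2. The groups were apart, but LQ replicates 1 and 2 rest on a single read. With an LQ mean of 0.783 CPM, it entered the test only through HQ, the group where it was higher. The ratio of pooled counts was 6.87 for HQ over LQ, with an exact 95% interval of 2.40 to 27.0 that covers counting error only, and the log2 difference was 2.01 (standard error 0.667, adjusted p = 0.0315 from limma). The call was lost without any 1 of the libraries other than LQ replicate 1 (adjusted p of 0.0597 to 0.107). The 5p arm of the hairpin stood at 1.41, 2.22 and 1.71 CPM in HQ and at 9.83, 0 and 1.36 CPM in LQ. Its LQ mean thus came from LQ replicate 1, the shallowest library, and the log2 difference was 0.09 (adjusted p = 0.952).

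Of the other miRNAs from miR-7134 to miR-7857, none passed the test. miR-7137, in an intron of BUD23, an RNA methyltransferase gene, had its 5p arm at 148, 137 and 88.5 CPM in HQ and at 40.5, 97.0 and 81.1 CPM in LQ. LQ replicate 2 lay above HQ replicate 3, and the adjusted p was 0.0610 (log2 difference 0.83), though 0.0369 without LQ replicate 2 and 0.0280 without LQ replicate 3. Its log2 difference was 0.45 without LQ replicate 1 (adjusted p = 0.235) and -0.02 after GC correction. The 3p arm was at 19.2, 16.01 and 17.1 CPM in HQ and at 9.83, 10.6 and 9.54 CPM in LQ, without overlap but with an adjusted p of 0.104 (log2 difference 0.77, and 0.047 after GC correction). The 5p arm led the 3p arm by 4.13 to 9.17 times in LQ and 5.17 to 8.53 times in HQ.
miR-7144-5p, which lies on chromosome 11 from 74266991 to 74267012 across from an exon of ARGLU1, was at 20.2, 24.9 and 15.4 CPM in HQ and at 11.05, 13.7 and 4.43 CPM in LQ. The groups did not overlap, and the log2 difference of 1.12 had an adjusted p of 0.0509 from limma. It was 0.0265 without LQ replicate 1 and 0.0355 without LQ replicate 2, but without LQ replicate 3 the log2 difference was 0.67 (adjusted p = 0.310) and after GC correction 0.73 (adjusted p = 0.220). The paper's own test, run with other software, lists miR-7144-5p as higher in HQ.
miR-7139, in an intron of E2F7, a repressor of cell-cycle genes, showed overlap in both arms. Its 5p arm was at 21.7 to 39.0 CPM in HQ and 16.3 to 30.7 CPM in LQ (log2 difference 0.41, adjusted p = 0.391), and the 3p arm at 3.42 to 12.01 CPM and 3.07 to 8.60 CPM (0.08, adjusted p = 0.940). The remaining 3 were near the limit of detection. Of these, miR-7143-3p had a mean above 1 CPM only in LQ and miR-7857-3p only in HQ, the higher group for each. miR-7143-3p, at 0.445 to 0.571 CPM in HQ and 1.23 to 3.07 CPM in LQ, separated the groups at 1 step per HQ library (log2 difference -1.28, adjusted p = 0.256), miR-7136-3p was at 0 in HQ replicate 1 (-1.26, adjusted p = 0.254), and miR-7857-3p was at 0 in LQ replicate 1 (0.67, adjusted p = 0.640).

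From miR-9784 to miR-9862 none of the 7 tested miRNAs passed. miR-9843-3p, in an intron of the sphingomyelin synthase gene SGMS2 on chromosome 8 from 114110670 to 114110691, was the second most abundant late-numbered miRNA. It was at 717, 624 and 757 CPM in HQ and at 967, 619 and 677 CPM in LQ, with the highest value in LQ replicate 1 and overlap between the groups. Its log2 difference was -0.09 (95% interval -0.58 to 0.41, adjusted p = 0.830 from limma) and changed sign under several alternatives, to 0.11 without LQ replicate 1. It shares its seed with miR-146a-3p, which was at 0 in every library.
miR-9851-3p, in an intron of HSPA12A, a heat shock protein gene, was at 191, 339 and 212 CPM in HQ and at 157, 213 and 209 CPM in LQ (log2 difference 0.32, 95% interval -0.24 to 0.88, adjusted p = 0.391). HQ replicate 2 stood above the other libraries. miR-9841-3p, in an intron of the coagulation factor gene F13A1, was at 41.3, 55.2 and 36.0 CPM in HQ and at 22.1, 24.7 and 30.0 CPM in LQ. Its groups did not overlap, and the log2 difference was 0.76 (adjusted p = 0.0612), or 0.27 after GC correction. miR-9820-5p, in an intron of the co-chaperone gene SIL1, was at 26.3 CPM in HQ replicate 1 and between 4.003 and 9.83 CPM in the other 5 libraries, so that its log2 difference of 0.35 (adjusted p = 0.712) was -0.48 without that library. miR-9860-5p was at 5.71 to 14.2 CPM in HQ and 4.85 to 9.83 CPM in LQ (0.54, adjusted p = 0.399). miR-9810-3p lies in an intron of MPC2, a mitochondrial pyruvate carrier gene. It was at 4.69, 0.890 and 2.28 CPM in HQ and at 1.23, 0 and 0 CPM in LQ (1.85, adjusted p = 0.139). With an LQ mean of 0.409 CPM, it entered the test only through HQ, the group where it was higher. Without LQ replicate 1, where the LQ libraries left were both at 0, the adjusted p was 0.0212. It was 0.122 to 0.361 without any other library, and after GC correction the log2 difference was 0.83 (adjusted p = 0.579). miR-9788-3p was at 0 to 4.22 CPM in HQ and 1.36 to 4.91 CPM in LQ (-0.93, adjusted p = 0.421), and its sequence is annotated at 2 loci of chromosome 12.

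All 4 tested miRNAs from miR-4331 to miR-4339 were higher on average in HQ, and none passed. miR-4331-5p was at 276, 335 and 299 CPM in HQ and at 357, 249 and 244 CPM in LQ (log2 difference 0.12, 95% interval -0.40 to 0.63, adjusted p = 0.771 from limma), and the 3p arm with its many genomic copies was at 39.9 to 59.9 CPM in HQ and 39.2 to 44.2 CPM in LQ (0.20, adjusted p = 0.645). The value named 5p was higher by 4.98 to 7.17 times in HQ and 5.88 to 8.08 times in LQ. As the 3p reads cannot be assigned to a single hairpin and miR-4331-5p had no annotated sequence, this ratio cannot be read as one of arms. miR-4332 was at 15.5, 28.5 and 18.3 CPM in HQ and at 18.4, 10.6 and 7.15 CPM in LQ. LQ replicate 1 overlapped with HQ, and the adjusted p was 0.132 (log2 difference 0.81), or 0.0243 without that library. The log2 difference was 0.51 without LQ replicate 3 (adjusted p = 0.450).
miR-4334-3p was at 41.3, 72.5 and 52.5 CPM in HQ and at 33.2, 27.8 and 32.0 CPM in LQ, without overlap. Its log2 difference of 0.80 had an adjusted p of 0.0509, which was 0.0461 without HQ replicate 1 and 0.0435 without LQ replicate 1. The log2 difference was 0.58 without HQ replicate 2 (adjusted p = 0.207) and 0.19 after GC correction (adjusted p = 0.709). The miR-339 sequences that contain it were far more abundant. miR-339 averaged 7513 ± 1563 CPM over HQ (SD, n = 3) against 6303 ± 1248 CPM over LQ (SD, n = 3; log2 difference 0.25, adjusted p = 0.413), and miR-339-5p at 2034 ± 428 and 1499 ± 364 CPM (0.45, adjusted p = 0.178). miR-4334-3p amounted to 0.425%, 0.633% and 0.702% of their sum in HQ replicates 1 to 3 and to 0.554%, 0.307% and 0.382% in LQ replicates 1 to 3, and these shares overlapped between the groups. The other arm, miR-4334-5p, was at 0 in every library.

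From miR-10382 to miR-10391, miR-10388 was higher on average in LQ. It was at 8.45, 8.45 and 5.14 CPM in HQ and at 11.05, 13.2 and 28.3 CPM in LQ. The groups did not overlap, and the spread in LQ came from replicate 3. The log2 difference was -1.11 (standard error 0.423, adjusted p = 0.0562 from limma), and -1.37 without LQ replicate 1, with an adjusted p of 0.0178. Without LQ replicate 3 it was -0.72, with an adjusted p of 0.375. The paper's own test, run with other software, lists miR-10388 as higher in LQ. miR-10386 was at 57.3, 44.0 and 89.6 CPM in HQ and at 171, 69.2 and 36.8 CPM in LQ. Its highest value was in LQ replicate 1 and its lowest in LQ replicate 3, and the log2 difference of -0.31 (adjusted p = 0.626) was 0.27 without LQ replicate 1. miR-10384 was at 14.8 to 25.8 CPM in HQ and 12.3 to 24.9 CPM in LQ (0.13, adjusted p = 0.821).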

How the data were processed

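TMM-adjusted CPM, a normalized signal, had been deposited for each miRNA in 6 libraries. By the paper's methods, the authors used CLC Genomics Workbench for trimming, mapping to Sscrofa11.1, miRBase annotation and TMM normalization. Tools in the submitters' processing notes, with no role given, are bcl2fastq, DESeq2 and Bowtie2 2.2.2. The columns summed to between 915120 and 1103610 CPM and no raw counts were used, so count tests were not run. The use of unique molecular identifiers was not stated.

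Groups followed the oocyte quality in the labels. A two-sided limma test (limma 3.58.1, R 4.3.3) with a trended prior was run on log2(CPM + 0.5) of the 309 miRNAs whose mean exceeded 1 CPM in HQ or LQ, with Benjamini-Hochberg adjustment over all of them. The pseudocount understates the change of low miRNAs. The members, lists, tests and alternatives were chosen with earlier results of these data known. Every tested member is named. Members with an adjusted p under 0.05, or among the 5 highest, have each library's value, as do members with a mean above 5 CPM where space allowed. The other miRNAs named share a seed or arm with a member or stand next to the number threshold.

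Sequences, places and GC content came from the RefSeq annotation of Sscrofa11.1, the build the authors mapped to, by name, or by the side of the hairpin where the annotation names no arm. Exact copies were searched on both strands of that genome. The fit was first tested on simulated data. Alternatives covered the pseudocount, the filter, 2 scalings, the variance prior, array weights, a GC correction, the replicate number as a block, the human-numbered members and leaving out each library. A fit limited to miRNAs of known sequence was added after seeing the data. Python 3.11.15 and matplotlib 3.10.9 drew the figures.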

Additional observations from a re-analysis of the deposited data

How the results depend on the processing

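Of the 30 late-numbered miRNAs tested, 7 kept direction and call under every alternative run. Of these, only miR-6529 and miR-6516 passed, and without a sequence they could not enter the GC correction. miR-4331-5p, miR-7139-5p, miR-9788-3p, miR-7857-3p and miR-7136-3p kept their direction but passed in no fit. With 3 libraries per group and values near 1 read for the lowest miRNAs, depth limits what can be said of those under about 5 CPM. Causes of the changes were not tested. The fit over known sequences holds 256 miRNAs and leaves out miR-6529 and miR-6516.

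By adjusted p, 36 of all miRNAs had their higher level in HQ and 46 in LQ. These counts were 60 and 27 with equal sums, 11 and 18 without the prior's trend, 56 in HQ with array weights and 27 in LQ after GC correction. The GC-corrected fit held only the 256 miRNAs of known sequence, and without correction these gave 39 in LQ. With fold and level added they were 16 and 23, against 31 and 12 with equal sums, 10 and 14 without the trend, and in LQ 11 after GC correction, 15 after GC correction with the replicate block and 35 with array weights. Over known sequences without correction, 18 were then higher in LQ. Leaving out 1 library gave 9 to 48 in HQ and 20 to 61 in LQ by adjusted p, and 7 to 23 and 15 to 33 with fold and level.

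Among the late-numbered miRNAs, the 4 higher in HQ by adjusted p were 9 with equal sums or array weights, 7 with the replicate block, 2 after GC correction and 1 after GC correction with the replicate block. The 1 higher in LQ was 2 with array weights, with the replicate block or without the trend, and 0 over known sequences, with or without GC correction or the block, and without the members numbered as human miRNAs. With fold and level, the 2 in HQ were 5 with equal sums, 4 with array weights, and 1 after GC correction, after it with the block, over known sequences alone and without the members numbered as human miRNAs. The 1 in LQ was 2 with array weights or the replicate block and 0 in the same 4 settings. In both LQ counts that 1 is miR-6516. These 4 settings leave out miR-6516 and miR-6529 by design, so their 0 was fixed in advance. Leaving out 1 library gave 1 to 8 in HQ and 1 to 2 in LQ by adjusted p, and 1 to 4 and 1 to 2 with fold and level. With a sequence for 76.7% of the late-numbered miRNAs tested, the GC correction is void as a check of them as a set, and its counts are given as values only. Correlations of same-numbered deviations were -0.01, -0.01 and -0.04 and gave no sign that the replicate numbers pair the samples. They cannot exclude a pairing, and the block result is given here only.

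The sign turned in 12 miRNAs, none with an adjusted p under 0.05 in the main test. After GC correction, with or without the block, the log2 differences were 0.019 for miR-9843-3p, -0.57 for miR-9851-3p, -0.020 for miR-7137-5p, -0.36 for miR-4331-3p, -0.25 for miR-7134-5p, -0.14 for miR-9860-5p, -0.32 for miR-7139-3p and -0.062 for miR-7135-5p. miR-9843-3p was at 0.11 with equal sums and 0.051 with array weights, miR-10384 at -0.031 with array weights, and miR-7135-5p at -0.093 with a pseudocount of 1. Leaving out 1 library gave -0.21 to 0.11 for miR-9843-3p, -0.83 to 0.27 for miR-10386, -0.48 to 0.81 for miR-9820-5p, -0.17 to 0.38 for miR-10384, -0.19 to 0.74 for miR-7134-5p, -0.41 to 0.42 for miR-7139-3p, -1.09 to 0.17 for miR-6782-3p and -0.96 to 1.23 for miR-7135-5p.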

Other observations

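Some late-numbered miRNAs that stood at 0 in every library carry the seed of a miRNA that was present. miR-9814-3p has the seed of the muscle miRNAs miR-1 and miR-206. miR-1 averaged 14.9 ± 5.59 CPM over HQ (SD, n = 3) against 26.2 ± 10.4 CPM over LQ (SD, n = 3), with a log2 difference of -0.79 (adjusted p = 0.121 from limma). miR-206 averaged 4.64 ± 0.990 CPM against 26.9 ± 7.81 CPM (-2.39, adjusted p = 0.00044). miR-9790-3p has the seed of miR-186-5p, which averaged 1116 ± 206 CPM over HQ (SD, n = 3) against 1159 ± 305 CPM over LQ (SD, n = 3; log2 difference -0.04, adjusted p = 0.939 from limma). The seeds, in capitals, are shared by the first 3 sequences shown here and by the last 2.
miR-9814-3p: cGGAAUGUuuucugauuguuggg
miR-206: uGGAAUGUaaggaaguguguga
miR-1: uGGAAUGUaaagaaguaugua
miR-9790-3p: cAAAGAAUgaggucggacacu
miR-186-5p: cAAAGAAUucuccuuuugggcuu

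Of the late-numbered miRNAs at 0 in every library, miR-9828-3p is annotated 3 times on chromosome 12, from 58566140 to 58566160, from 58569227 to 58569247 and from 58572321 to 58572341. miR-6782-3p, present at 0.341 to 3.68 CPM in 5 libraries, has 4 exact copies in the genome.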
